A study of Arabidopsis thaliana with 8 samples.

Results

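The 14 Arabidopsis thaliana genes described here carried 21-nt small RNAs in the wild type Col that stayed within 2-fold of that level in es3, above or below it, and were scarce in es3dd. They were chosen from 32420 genes on the authors' 21-nt means alone. A gene had to have a Col mean of at least 10, an es3 mean between 0.5 and 2 times Col, and an es3dd mean of at most 12.5% of Col. Genes of the plastid and mitochondrial genomes (identifiers starting ATCG or ATMG) and genes whose identifiers start with AT1G12, AT1G62 or AT1G63 were left out beforehand. Another 22 genes with such identifiers passed the 3 limits and are not described. Of 2334 genes past the Col minimum, 1622 were also within 2-fold in es3, and 14 of those passed the es3dd limit. The 21-nt levels of these genes are therefore a description, and no test was made of them. They are on the authors' scale, and no other scale was tried for es3 against Col.

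Small RNAs were sequenced from the aerial parts of 20-day-old plants, which had spent 6 days on MS medium before 14 days on soil. The es3 plants are ein5-1 ski2-3 double mutants, and es3dd plants carry dcl4-2 and dcl2-1 on top of both of those alleles, so every labelled library lacks both decay factors. The labels give 4 es3 and 4 es3dd libraries and call them biological replicates. The mutations are present in the whole plant, and the labels do not say how many plants went into a library. Col has no labelled library in this series, so its values are the authors' means, with no spread. A value is the authors' TPM, the reads of a size class brought to one total, without division by the length of the gene. The value of 1 read ran from 0.693 to 0.966 over the 21-nt and 22-nt libraries, so a value of a few units rests on a few reads, with a large counting error. Library values of es3 and es3dd were recovered from the group means as whole reads, as described under the processing. Among genes typical of green tissue, 5 of 5 carried 21-nt reads in both genotypes, with summed means of 1328 in es3 and 1056 in es3dd. Of 4 root hair genes, 2 carried any in es3, with a summed mean of 1.38, and 0 did in es3dd. Small RNAs from a gene are not the level of its mRNA, so neither these genes nor the mutated ones check a label.

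Plants degrade cytoplasmic mRNA from the 5' end with the exoribonuclease EIN5 (also called XRN4) and from the 3' end with the exosome, which the helicase SKI2 feeds. RNA that escapes decay can be copied into double-stranded RNA by RDR6 and cut by Dicer-like enzymes, into 21-nt siRNAs by DCL4 and 22-nt siRNAs by DCL2. Some transcripts enter the pathway in normal plants because a microRNA, often one of 22 nt, cuts them and recruits RDR6. Genes for NLR immune receptors and for pentatricopeptide repeat (PPR) proteins are known sources of such phased siRNAs, and the TAS3 RNA gives rise to trans-acting siRNAs that target ARF genes. MicroRNAs themselves are cut by DCL1, which is intact in both genotypes.

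Several small RNAs in RefSeq's annotation of TAIR10.1 are complementary to genes of the set, and the pairs are shown because they are referred to below. Shown are the microRNA sites with a score of up to 3.5, on the scale given after the sequences, and the closest TAS3A matches. The TAS3A entries are stretches of 21 bases of that locus, not siRNAs read in these libraries. Each small RNA is written 5′ to 3′ with its seed, bases 2 to 8, in capitals, and each site 5′ to 3′ on the transcript strand with bases in Watson-Crick pairs in capitals.
miR472-3p: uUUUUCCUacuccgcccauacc
site in AT5G63020, chr5:25285441-25285462, minus strand: GGTATGGGtGGAGTAGGtAAAA
site in AT4G14610, chr4:8382929-8382950, minus strand: GGaATGGGtGGAGTgGGAAAAA
site in AT1G15890, chr1:5461946-5461967, plus strand: GGTATGGGgGGAGTAGGtAAAA
miR161.2: uCAAUGCAuugaaagugacua
site in AT5G16640, chr5:5461797-5461817, plus strand: TAtTtACTTTCAATGCgTTGA
miR161.1: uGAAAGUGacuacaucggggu
site in AT5G16640, chr5:5461788-5461808, plus strand: ACCCtGATGTAtTtACTTTCA
miR846-5p: cAUUCAAGgacuucuauucag
site in AT5G63020, chr5:25283427-25283447, minus strand: aTGgATAGAAaTCCTTGAATG
miR5661: aGAGGUACaucauguagucug
site in AT5G45480, chr5:18426793-18426813, minus strand: CAGACTACATGATGTAtCTCc
TAS3A 21-mer: uUUCUUGAccuuguaagaccc
first site in ARF4, chr5:24309507-24309527, minus strand: GGGTCTTgCAAGGTCAAGAAA
TAS3A 21-mer, shifted by 1 base: uUUUCUUGaccuuguaagacc
second site in ARF4, chr5:24309716-24309736, minus strand: GGTCTTgCAAGGTCAAGAAAA

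All of these sites lie in annotated coding sequence except that of AT4G14610, a transcribed pseudogene with no coding sequence annotated. Sites were scored with 1 per mismatch and 0.5 per G:U pair, doubled at bases 2 to 13 of the small RNA, so that a low score is a close match. The 3 miR472-3p sites scored 2.5, 2.5 and 3, and no other member held a site for that 22-nt microRNA at a score of up to 4. No 2 of the microRNAs shown share a seed, and the miR161 pair is cut from 1 precursor at shifted positions. miR161.2 scored 2.5 and miR161.1 scored 3.5 at overlapping positions of AT5G16640, where miR400 also had a site, at 4. miR846-5p scored 3.5 and miR5661 scored 2. The 2 TAS3A matches in ARF4 scored 0.5 each, with no mismatch and 1 G:U pair. Other stretches of TAS loci matched AT5G16640, BIM1 and AT5G63020 at scores of 2.5 to 3, repeats aside, and the share of all genes with a TAS match was not computed. At a score of up to 3, sites for 350 distinct annotated mature microRNAs were found in 5 of the 14 genes and in 5.03% of 31722 annotated genes. With a limit of 4 the figures were 6 of 14 and 11.1%. AT5G38850, the gene with the highest level, held none, although the annotation searched lists no 5p arm for MIR825, the microRNA known to target NLR genes of its type. A match is a description of the sequence, and none of these sites was shown to be cut in these samples.

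One gene dominated the set. AT5G38850 (TAIR10.1 chromosome 5, 15555156 to 15558882), which encodes a TIR-type NLR, held 82.0% of the summed 21-nt means of the 14 genes in Col, 83.4% in es3 and 83.6% in es3dd. Summed over the other 13 genes, the 21-nt means came to 394 in Col, 427 in es3 and 27.8 in es3dd. The members lie on chromosomes 1 (5 genes), 4 (1 gene) and 5 (8 genes), and the closest pair is 197 kb apart. Genes with identifiers starting AT1G12, AT1G62 or AT1G63 had been left out beforehand, so this spread describes only the genes kept. By annotation 13 are protein-coding and 1 is a pseudogene. No MIR locus is among them, and of 97 MIR loci past the Col minimum 0 had an es3dd mean at or below 12.5% of Col.

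Relative to Col, the es3 21-nt mean ran from 0.575-fold at AT5G45480 to 1.69-fold at BIM1, with a median of 1.08-fold, and 7 of 14 genes stood above 1. The share of the Col mean found in es3dd ran from 2.09% at AT5G16640 to 11.2% at AT5G63020, with a median of 8.23%. These shares rest on 2 to 29 reads over the 4 es3dd libraries at every member but AT5G38850, which had 613. Just outside the limits stood AT1G18720, with a Col mean of 9.97 against 10.3 for the lowest member GGH2. AT5G43730, a CC-type NLR gene, was at 2.05 times Col in es3. ABCC8, a transporter gene, was at 0.484 times Col, and AT5G42110 kept 13.1% in es3dd.

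**Figure D1:**
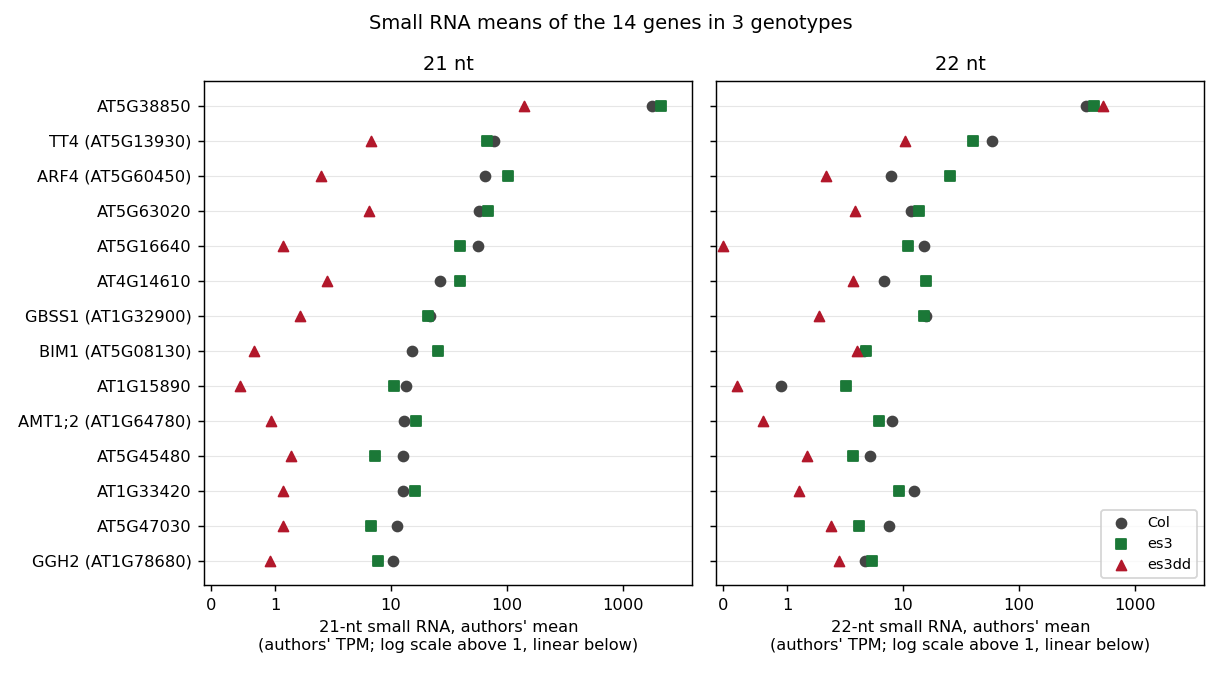
Authors' mean 21-nt (left) and 22-nt (right) values of the 14 genes in Col (circles), es3 (squares) and es3dd (triangles), in the authors' TPM on an axis that is logarithmic above 1 and linear below it, ordered by the Col 21-nt mean. At 21 nt the es3 and Col points lie close together and the es3dd points far to the left, as the choice of genes requires, while at 22 nt AT5G38850 has its es3dd point, 538, to the right of both.

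Immune receptor genes made up 3 of the 14 by annotated product, and the pseudogene AT4G14610 shares the miR472-3p site with 2 of them. NLR proteins sense pathogen effectors, and plants are known to hold their transcripts down through microRNAs and phased siRNAs. AT5G38850 stood at 1798 in Col and 2145 in es3 at 21 nt as the authors' means, and its es3 reads were too many to be assigned to libraries. In es3dd its 21-nt values were 139, 117, 143 and 168. That is 142 ± 20.9 (SD, n = 4), 7.89% of the Col mean. Its es3dd level was thus still above the Col level of every other member.

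At 22 nt AT5G38850 did not follow the other genes. The 4 es3 libraries held 447, 441, 408 and 492, and the 4 es3dd libraries 563, 515, 561 and 511. All es3dd libraries lay above all es3 libraries, which was so of 1 member, this one, and of 6.83% of the genes tested. The log2 difference, es3 minus es3dd, was -0.27 ± 0.06 (SE), with an adjusted p of 0.00011 in limma, short of the size of 1 that a call required. Scaled to MIR loci instead of by the authors, the difference turned to 1.15 ± 0.10. As the authors' means its 22-nt level was 380 in Col, so es3dd held 141% of the Col level at 22 nt against 7.89% at 21 nt. The 22-to-21-nt ratio of this gene was 0.211 in Col, 0.208 in es3 and 3.79 in es3dd. The 2 size classes were scaled separately, so a ratio compares scaled values, not molecules.

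AT5G63020 (chromosome 5, 25283063 to 25286121), a CC-type NLR gene, carried 21-nt values of 81.8, 51.0, 73.4 and 67.3 in es3 and of 7.97, 10.06, 3.72 and 3.86 in es3dd. At 22 nt the es3 libraries averaged 13.7 ± 1.37 and the es3dd libraries 3.86 ± 1.41 (SD, n = 4). No es3dd library reached the lowest es3 library, and the log2 difference was 1.64 ± 0.37 (SE, limma, adjusted p = 0.00033). An antisense lncRNA, AT5G09120, overlaps 467 bases of the gene in RefSeq, and whether reads were counted by strand is not given in the sources used here.

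AT4G14610 (chromosome 4, 8380848 to 8383496), the pseudogene, had 21-nt values of 39.5, 35.0, 45.9 and 37.7 in es3 and of 1.77, 2.74, 4.65 and 1.93 in es3dd. Its 22-nt libraries were at 8.34, 13.6, 15.1 and 26.5 in es3 and at 3.22, 4.38, 2.65 and 4.44 in es3dd. The groups did not overlap, the lowest es3 library at 8.34, lying above the highest es3dd library, at 4.44, and the gene was called (log2 difference 1.76 ± 0.37, SE, limma, adjusted p = 0.00012).

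AT1G15890 (chromosome 1, 5461309 to 5464241), another CC-type NLR gene, was sparse at 22 nt, with 16 reads over the es3 libraries and 1 over the es3dd libraries. The es3 values were 6.82, 3.39, 1.77 and 0.946, and 3 es3dd libraries were at 0 and the fourth at 0.889. The lowest es3 and the highest es3dd library hold 1 read each and differ only in their scale. The call (1.65 ± 0.56, SE, limma, adjusted p = 0.022) was lost under median-centring (adjusted p = 0.10), under quantile normalization (0.18), with a pseudocount of 4, where the difference was 0.72, and without any of 4 single libraries (0.053 to 0.057). The gene passed the filter on low values through es3 alone, where its mean was 3.23 against 0.222 in es3dd, and it was not tested at all with the filter on Col, with a mean of at least 5, or without the es3 library that held 9 of its 16 reads.

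The miR472 group of NLR genes, a list of 9 with AT1G15890 on it, sets this gene beside its relatives. Of the 9, 5 passed the Col 21-nt minimum, 4 of these passed the es3dd limit, and 3 of the 4 were above 2-fold in es3. They were AT5G43740 (805 in Col, 2124 in es3, 42.8 in es3dd), AT5G43730 (150, 307 and 13.8) and AT1G51480 (68.1, 149 and 5.76). AT1G15890 stood at 13.6, 10.6 and 0.454. AT1G61190, also past the Col minimum, was at 11.1, 12.5 and 3.93, above the es3dd limit. Below the minimum, AT1G61180, AT1G61300 and AT1G61310 were at 1.56, 1.23 and 1.77 times Col in es3. At 22 nt 4 of the 8 list genes tested were higher in es3 than in es3dd and 0 lower (limma, adjusted p under 0.05 and a log2 difference of at least 1, which 15.1% and 4.33% of all genes passed; 0 lower also at an unadjusted p under 0.05 and with voom weights). The list's median log2 difference was 1.04, against 0.30 over all genes tested. Over all 188 genes with an NLR product, 94 were tested at 22 nt, and 28 were higher and 0 lower in limma, with a median of 0.98. At an unadjusted p under 0.05 the counts were 51 higher and 4 lower, and with voom weights 19 and 1. The list of 5 TIR-type genes that holds AT5G38850 had 4 tested and 1 higher, with a median of 1.14. With voom weights 0 of them were higher and 0 lower. At an unadjusted p under 0.05, 3 were higher and AT5G38850 was the 1 lower. The list was put together with earlier results on these samples known and is no independent evidence of a direction. The MIR472 locus itself is listed at 0 in all 3 genotypes and both size classes.

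ARF4 (AT5G60450, chromosome 5, 24308255 to 24312784) encodes an auxin response factor that acts in leaf polarity and is a classical target of TAS3 siRNAs, which match it at both sites shown above. In es3 its 21-nt values were 104, 79.4, 109 and 115, and in es3dd they were 4.43, 4.57, 0 and 0.966. At 22 nt the es3 libraries were at 25.0, 20.3, 28.4 and 27.4 and the es3dd libraries at 0.805, 2.63, 4.42 and 0.889. The groups lay far apart, with a log2 difference of 3.19 ± 0.37 (SE, limma, adjusted p = 2.7e-11), the smallest adjusted p among the 14. ARF4 was also the one member that passed the thresholds in the authors' deposited table for es3 over Col at 22 nt, where 7.85% of genes were higher, with a log2 fold change of 1.70 and an adjusted p of 0.00045. The authors' means for that comparison were 7.95 in Col and 25.3 in es3, so the gene was within 2-fold of Col at 21 nt (1.57-fold) but not at 22 nt (3.18-fold).

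On the list of 12 tasiRNA target genes, ARF4 was the only one to pass the Col minimum and the es3dd limit, out of 3 past the Col minimum. ARF2 had 21-nt means of 27.3 in Col, 112 in es3 and 6.79 in es3dd. MYB75, an activator of anthocyanin genes, stood at 12.4, 89.4 and 4.83. ARF3, below the minimum, was at 7.20, 24.4 and 2.54. Of the 8 list genes tested at 22 nt, 5 were higher in es3 than in es3dd in limma, with a median log2 difference of 2.26, and 0 were lower by limma, at an unadjusted p under 0.05 or with voom weights. TAS loci have no row in the table. MIR390a, whose microRNA starts TAS3 siRNA production, had authors' 21-nt means of 791 in Col, 158 in es3 and 2190 in es3dd, and MIR390b had 254, 60.8 and 913. This order is not particular to MIR390, since MIR825 was at 560, 180 and 741. As a class, 59 of 100 MIR loci tested at 22 nt were lower in es3 than in es3dd and 2 higher (limma, same thresholds).

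AT5G16640 (chromosome 5, 5460921 to 5463017) encodes a PPR protein, a class that binds organellar RNA. It had the smallest share left at 21 nt, with es3 values of 42.3, 35.0, 55.0 and 24.6 and es3dd values of 0.886, 0, 0.931 and 2.90. At 22 nt the es3 libraries held 12.9, 13.6, 8.87 and 8.51, and all 4 es3dd libraries were at 0 reads. With a floor of 3 reads set for the es3dd group, the es3 mean was 16.4-fold above that floor. The counting error of es3 itself is not in this figure. The fitted log2 difference of 3.55 ± 0.50 (SE, limma, adjusted p = 1.8e-08) depends on the pseudocount and is no bound. Among 261 PPR genes, identifiers of all kinds included, 13 passed the Col 21-nt minimum and 11 of these also the es3dd limit, and none of the 11 was above 2-fold in es3. MIR161, which encodes miR161.1 and miR161.2, had 21-nt means of 41229 in Col, 23847 in es3 and 122416 in es3dd, an order shared with MIR390a, MIR390b and MIR825. Of the 2077 stretches of 21 bases in AT5G16640, 7 also occur elsewhere in the genome, and 6 other genes hold some of them. Among the 6, AT1G62910, AT1G63070 and RPF2 share 4 stretches each and have identifiers left out beforehand. Their 21-nt means were 3023, 950 and 722 in Col, 3022, 947 and 752 in es3, and 2.58, 1.13 and 0.241 in es3dd. AT5G16640 stood at 56.5 in Col, and how much of that came from reads of shared stretches was not tested.

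TT4 (AT5G13930, chromosome 5, 4488476 to 4490264) encodes chalcone synthase, the entry enzyme of flavonoid synthesis, and had no microRNA site within the limit. In es3 its 21-nt values were 59.6, 69.9, 77.2 and 62.3, and in es3dd they were 7.97, 3.66, 10.2 and 4.83. At 22 nt they were 43.2, 43.2, 39.9 and 35.9 in es3 and 16.1, 11.4, 5.30 and 8.89 in es3dd. The groups did not overlap (log2 difference 1.95 ± 0.26, SE, limma, adjusted p = 1.7e-09). Against Col the authors' deposited table gives a log2 fold change of -0.54 at 22 nt with an adjusted p of 0.049, short of the fold a call needed.

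GBSS1 (AT1G32900, chromosome 1, 11920390 to 11923866), the granule-bound starch synthase that makes amylose, was the most even member between Col and es3, at 21.5 and 20.8 at 21 nt and 15.7 and 15.1 at 22 nt as the authors' means. Its 22-nt libraries held 15.2, 16.95, 15.97 and 12.3 in es3 and 3.22, 3.50, 0.884 and 0 in es3dd. The log2 difference was 2.71 ± 0.43 (SE, limma, adjusted p = 4e-07). Its 22-to-21-nt ratio in es3, 0.725, was the highest of the 14.

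AMT1;2 (AT1G64780, chromosome 1, 24060640 to 24062804), an ammonium transporter, had 22-nt values of 6.07, 4.24, 10.7 and 3.78 in es3 and of 1.61, 0.876, 0 and 0 in es3dd, the latter from 3 reads. It was called (2.18 ± 0.53, SE, limma, adjusted p = 0.00093). The one microRNA match in it, to the repetitive miR5021 at a score of 4, was of a kind found in 4.54% of all genes. AT1G33420 (chromosome 1, 12120886 to 12123576), which encodes a PHD finger protein, had 22-nt libraries at 12.1, 7.63, 7.99 and 9.46 in es3 and at 2.41, 0.876, 0 and 1.78 in es3dd. It was called as well (2.31 ± 0.47, SE, limma, adjusted p = 7.7e-05), and an annotated antisense lncRNA, AT1G33415, spans all of it.

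**Figure D2:**
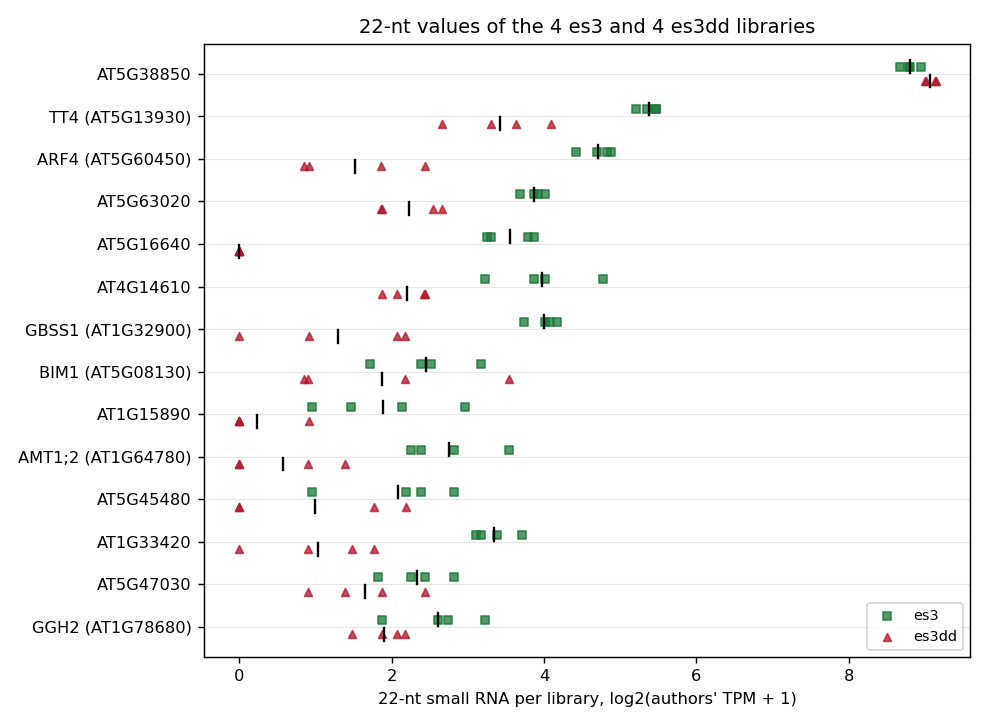
Recovered 22-nt values of the 4 es3 libraries (squares) and 4 es3dd libraries (triangles) for each gene, as log2(authors' TPM + 1), with a black bar at each group's mean of the log2 values. In 9 genes every es3 library lies above every es3dd library, as in 16.3% of all genes tested, in AT5G38850 below, and in BIM1, AT5G45480, AT5G47030 and GGH2 the groups overlap.

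The remaining 4 genes had 22-nt libraries that overlapped between the genotypes, and none was called. BIM1 (AT5G08130, chromosome 5, 2606002 to 2610250) encodes a bHLH factor of brassinosteroid signalling. Its 21-nt values were 29.1, 27.7, 23.7 and 21.3 in es3, while es3dd held 3 reads in all, 2 of them in 1 library. At 22 nt it was at 2.27, 4.24, 7.99 and 4.73 in es3 and at 0.805, 0.876, 3.54 and 10.7 in es3dd. One es3dd library was thus above every es3 library, and the log2 difference was 0.58 ± 0.50 (SE, limma, adjusted p = 0.43).

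AT5G45480 (chromosome 5, 18426104 to 18429090) encodes a putative membrane protein with a DUF594 domain and carries the miR5661 site. At 22 nt its es3 libraries averaged 3.70 ± 2.12 and its es3dd libraries 1.49 ± 1.79 (SD, n = 4), and the log2 difference of 1.10 ± 0.56 (SE) had an adjusted p of 0.15 in limma. An antisense lncRNA, AT5G45472, spans the whole gene. AT5G47030 (chromosome 5, 19090150 to 19092416), annotated as a delta/epsilon subunit of the F1 ATPase, was at 4.21 ± 1.47 and 2.40 ± 1.55 (SD, n = 4). Its adjusted p was 0.33 in limma. GGH2 (AT1G78680, chromosome 1, 29593756 to 29596308), a gamma-glutamyl hydrolase that shortens the glutamate tail of folates, was at 5.44 ± 2.33 and 2.79 ± 0.76 (SD, n = 4), with an adjusted p of 0.27 in limma. These 4 genes had 18 to 26 reads over the es3 libraries at 22 nt. That is few, though the called AT1G15890 had fewer, and the part of depth in the missing calls was not tested.

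Counted over the set, 9 of the 14 genes were called higher in es3 than in es3dd at 22 nt and 0 lower (limma, adjusted p under 0.05 and a log2 difference of at least 1), against 15.1% higher and 4.33% lower of 14648 genes tested. At an unadjusted p under 0.05 the counts were 9 and 1, and limma with voom weights also gave 9 and 0. Of these 9, AT1G15890, AT5G16640 and AMT1;2 had es3dd means under the filter's limit of 1 (0.222, 0 and 0.621) and passed it through es3 alone. With the filter on the Col mean instead, AT5G16640 (15.3 in Col) and AMT1;2 (8.08) were still tested and AT1G15890 was not. The same 9 genes had libraries that did not overlap with es3 above, against 16.3% of the genes tested, and 1 had them the other way, against 6.83%. The authors' deposited table, at the same thresholds, also has 9 members higher in es3 than in es3dd, against 10.9% of its genes. The 22-nt reads did not enter the choice of genes, but they come from the same libraries and the same loci as the 21-nt reads that did, so the counts are given as a description of the set. The median log2 difference was 1.71 over the 14 genes and 0.30 over all genes tested. With the es3dd group of AT5G16640 at the floor of 3 reads the members' median was again 1.71. It could not have moved, since that gene stays above the middle of the 14.

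Scaling moved these values for all genes together. Median-centring put the median of all genes at -0.13 and left 8 members called higher, with 1233 genes higher and 1595 lower in all against 2218 and 634 on the authors' scale. Scaling to MIR loci put the median at 1.27 and called all 14 members higher, AT5G38850 included, along with 8461 genes higher and 66 lower.

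**Figure D3:**
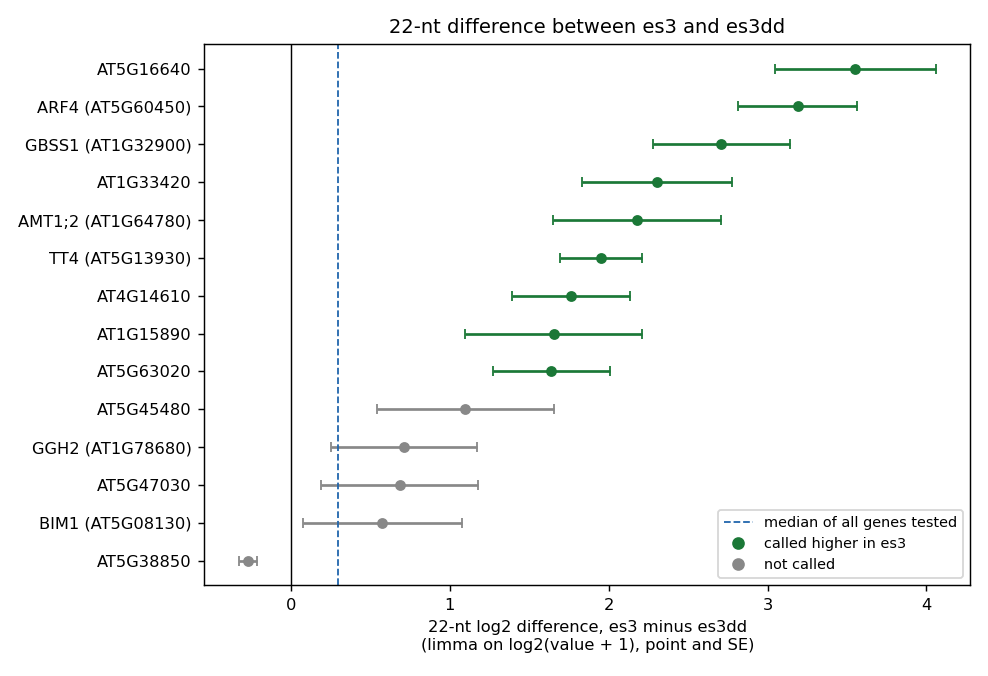
Log2 difference at 22 nt, es3 minus es3dd, of each of the 14 genes with its SE from limma on log2(value + 1), sorted, with the median of all genes tested (0.30) as a dashed line. The 9 called genes range from 1.64 at AT5G63020 to 3.55 at AT5G16640, and AT5G38850 is the one gene below 0 on the authors' scale.

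Most of the genes stood near their Col level at 22 nt in es3, as they had been chosen to do at 21 nt. The es3 22-nt mean was within 0.5 to 2 times Col in 11 of 14, and 7 of 14 stood above Col. The exceptions were AT1G15890 (0.912 in Col and 3.23 in es3), ARF4 and AT4G14610 (6.92 and 15.9). In the authors' deposited table, 1 member was called higher at 22 nt and 0 lower, where 7.85% of 14640 genes were called higher and 3.96% lower. For AT1G15890 the table gives a log2 fold change of 1.84 with an adjusted p of 0.37, and for AT4G14610 one of 1.201 with an adjusted p of 0.063. The comparisons with Col and with es3dd share the es3 libraries.

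Levels left in es3dd were less even at 22 nt than at 21 nt. The share of the Col 22-nt mean found in es3dd ran from 0 at AT5G16640 to 141% at AT5G38850, with a median of 28.1%. At AT5G16640, with 0 reads, a floor of 3 reads would be 4.35% of Col. The share was larger than the 21-nt share in 13 of 14 genes. Its median was 98.4% over all genes tested at 22 nt and 93.1% over genes past the Col minimum. Among genes that also passed the es3dd limit, it was 37.8% for those above 2-fold of Col in es3 at 21 nt. For those below 0.5-fold it was 21.6%. At or below 12.5% were 4 genes at 22 nt, AT5G16640, AMT1;2 (7.69%), AT1G33420 (10.2%) and GBSS1 (12.1%). BIM1 kept 85.8% at 22 nt and 4.45% at 21 nt, GGH2 59.0% and 8.91%, and AT4G14610 53.1% and 10.4%. The 22-nt share of BIM1 rests largely on 1 es3dd library, which held 12 of its 18 reads. The 21-nt shares are capped by the choice of genes and the 22-nt shares are not, so the gap between them was not tested.

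**Figure D4:**
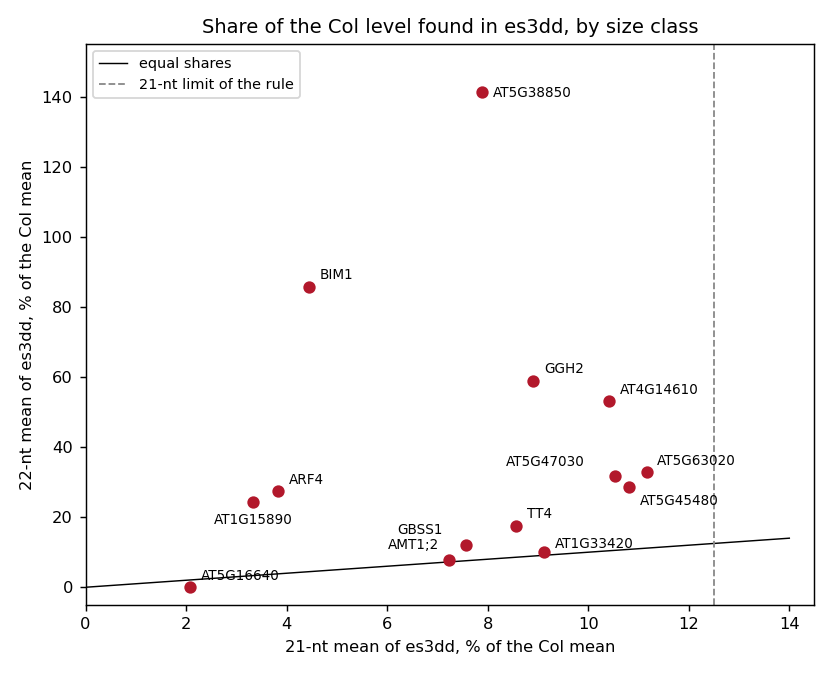
Mean of es3dd as a percentage of the Col mean at 21 nt (horizontal axis) and at 22 nt (vertical axis) for the 14 genes, from the authors' means, with a line of equal shares and the 12.5% limit of the choice dashed. All but AT5G16640 lie above the line, AT5G38850 (141%) and BIM1 (85.8%) furthest. At BIM1, 12 of the 18 es3dd reads at 22 nt come from 1 library.

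The 22-to-21-nt ratio of the authors' means, with 1 added to both, had a median over the 14 genes of 0.401 in Col, 0.416 in es3 and 1.08 in es3dd. No member had more 22-nt than 21-nt signal in Col or es3, and 9 did in es3dd. Over the 2334 genes past the Col minimum the medians were 1.13, 1.35 and 1.22, and 57.2%, 54.9% and 66.3% of these genes had more 22-nt signal. The rule sets the 21-nt value under each ratio, high in Col and low in es3dd, so the higher ratio in es3dd is largely fixed by the choice of genes. Without the added 1, the ratio in es3 ran from 0.189 at BIM1 to 0.725 at GBSS1. The lowest in Col was 0.0671 at AT1G15890.

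Other genes passed the Col minimum and the es3dd limit but were above 2-fold of Col in es3 (10 genes) or below 0.5-fold (11 genes). Their median 22-to-21-nt ratios, with 1 added, were 0.232 and 0.690 in Col, 0.248 and 0.762 in es3, and 1.22 and 1.19 in es3dd, against 0.401, 0.416 and 1.08 for the 14. At 22 nt, 8 of the 10 and 1 of the 10 tested were called higher in es3 than in es3dd, with median log2 differences of 2.86 and 0.64. In the authors' table for es3 over Col at 22 nt, 6 of the 10 were called higher and 6 of the 11 lower, in the direction that had sorted them at 21 nt. Among the 1608 genes that were within 2-fold in es3 but kept more than 12.5% in es3dd, 66 of 1596 tested were higher at 22 nt and 63 lower, with a median of 0.0034. No difference between these groups was tested, since their 21-nt values defined them.

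Reads shared with other genes could blur these values, and how multiply mapping reads were counted is not given in the sources used here. The share of a transcript's 21-base stretches that also occur elsewhere in the genome was highest for GGH2, at 4.98%, and AT5G38850, at 2.19%. It was under 2% in every other member. A small share does not bound the reads gained, since the other gene can stand far higher. AT1G15890, at 13.6 in Col at 21 nt, shares 8 stretches with AT5G43730 (150) and 3 with AT5G43740 (805). AT5G16640, at 56.5, shares 4 with AT1G62910 (3023). The size of this effect was not tested. None of the 14 holds a stretch of 21 bases that is complementary to another stretch of its own transcript.

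The remaining lists give the setting in which these genes lie, and their counts stand beside 15.1% higher and 4.33% lower of all genes tested at 22 nt. The auxin receptor genes TIR1, AFB2 and AFB3 were higher in es3 than in es3dd at 22 nt, 3 of 4 tested, with a median of 1.84 over the list. All 5 HD-ZIP III genes and all 3 HAM genes were higher too, with medians of 5.93 and 3.78, and REV, for example, had 21-nt means of 3.40 in Col, 539 in es3 and 2.35 in es3dd. Of 15 genes of the siRNA and microRNA pathway 6 were tested and 4 were higher, with a median of 2.78. Of 5 decay factors 4 were tested and 0 called by limma or with voom weights, and 0 had an unadjusted p under 0.05. Of 4 genes known from the study for their 22-nt siRNAs, such as NIA2 and SMXL4, 1 had few enough reads to be tested and was higher. Larger annotation classes went both ways. Of 633 kinase genes tested 170 were higher and 12 lower. MIR loci went the other way, with 2 of 100 tested higher and 59 lower and a median of -1.29. Of 31 transposable element genes tested 0 were higher and 4 lower, and of 4189 uncharacterized genes 180 were higher and 313 lower. None of the genes on these lists is among the 14.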

How the data were processed

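The 4 es3 and 4 es3dd small RNA libraries were reduced by the authors to group means per gene and size class, and the per-library values are not in the table. Per the file headers the means are in TPM. The values show that this deposited unit is not divided by gene length, and its total is not stated. Per the submitters' processing notes the build was TAIR10, and the tools included DESeq2 (no version), SAMtools 1.9 and Bowtie 1.2.2, with no role stated for any. The authors also deposited a log2 fold change and an adjusted p-value for each comparison, used here for 22 nt. Annotation and sequences came from RefSeq TAIR10.1, which holds 31722 genes and lacks 698 of the 32420 in the table.

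Library values were recovered from the means. Each mean is a sum of whole reads times 4 steps, and reads were accepted at a relative tolerance of 5e-15, up to 1500 reads over 4 libraries, or 3000 where each library was within 40% of the mean. All 25227, 21557, 23743 and 21836 genes of up to 1500 reads (es3 and es3dd at 21 nt, then at 22 nt) had a single match, and 0 of 3000 random values did in each column. Of genes in the wider search, which gave the 22-nt libraries of AT5G38850, 69 of 70, 27 of 30, 32 of 33 and 20 of 20 had a single match, and 0 of 60 random values did in each column. The recovery was tested on simulated data, and so was limma. The recovered scale, in units of 1000000 reads, was 1.22 to 1.44 in es3 and 1.04 to 1.13 in es3dd at 21 nt, and 1.06 to 1.32 and 1.12 to 1.24 at 22 nt. Intervals and floors cover counting error only. Recovered libraries carry no replicate numbers and are given in order of value per read, separately for each size class, so the same place in a list need not be the same library at 21 and 22 nt. Unused columns of library values numbered 0.

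At 22 nt, es3 and es3dd were compared with limma 3.58.1 in R 4.3.3, with its trend, on log2(value + 1), over 14648 genes with a mean of at least 1, with Benjamini-Hochberg adjustment over all of them. Calls needed an adjusted p under 0.05 and a log2 difference of at least 1. Fold changes on this scale understate the change of low genes. All 14 members passed the filter, and since it averages over both genotypes, a filter on the Col mean was tried as well. Alternatives were other pseudocounts, filters, scalings, voom weights and leaving out libraries. Genes named are all members, the genes beside each limit, and genes of the 10 lists. The members, lists and tests were chosen with earlier results of these data known.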

Additional observations from a re-analysis of the deposited data

Results flagged for a closer look

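Of 54 groups of 4 libraries examined over the 14 genes and both size classes, 1 had a library far from the rest, the 22-nt es3dd group of AT1G15890. Its value was 0.889 in 1 library, which is 1 read, and 0 in the other 3. The limit used flags about 1 in 20 groups of normally distributed values, a rate that does not hold for so few reads. Any group with 1 read in 1 library and 0 in the rest is flagged. Without that library the gene stayed among those called higher in es3.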

How the results depend on the processing

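The count of members called higher at 22 nt, es3 minus es3dd, was 9 and ran from 7 to 9 under the other pseudocounts, filters, median-centring, quantile normalization and voom weights, and it was 14 when scaled to MIR loci. Without single libraries it ran from 8 to 9. The 7 came with the filter of a mean of at least 5, which left only 8 members tested. The count called lower was 0, also without single libraries, and 1 on the adjusted p alone (AT5G38850). The filter on the Col mean left 13 members tested, of which 8 were called, and left out AT1G15890. The members' median difference was 1.95 with a pseudocount of 0.5, 1.15 with 4 and 2.13 over the 8 members with a mean of at least 5. It was 1.28 median-centred, 2.88 scaled to MIR loci and 1.44 with quantile normalization. Without single libraries it ran from 1.67 to 1.92. The difference of AT5G38850 turned to 1.15 when scaled to MIR loci.

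Over all genes, 1078 were higher and 296 lower with a pseudocount of 4, 1028 higher with a mean of at least 5, and 1373 higher with the filter on Col. Median-centring gave 1233 and 1595, MIR scaling 8461 and 66, quantile normalization 1238 and 1254, and the adjusted p alone 1019 lower. Without single libraries the counts ran from 1848 to 2020 and from 545 to 606. The median was 0.16 with a pseudocount of 4, 0.019 with a mean of at least 5, 0.19 with the filter on Col, -0.13 median-centred, 1.27 with MIR scaling, -0.10 with quantile normalization, 0.19 with voom weights and 0.28 to 0.31 without single libraries. Of all calls 77.8% were higher, against 43.6% median-centred, 99.2% with MIR scaling, 49.7% with quantile normalization and 66.1% with voom weights. The cause of these shifts was not tested.

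In the authors' table for es3 over Col, 0 members were higher at a log2 fold change of at least 2, 3 by the fold of the means with no test, and 1 was lower on the adjusted p alone (TT4). Over all genes, 657 were higher with a Col mean of at least 1, 259 lower at a log2 fold change of at least 2, and 3751 higher and 1419 lower by the fold of the means. The median 22-to-21-nt ratio was 0.380 in Col, 0.404 in es3 and 1.10 in es3dd with a pseudocount of 0.5. Over members with a Col 22-nt mean of at least 1 it was 0.451 in Col and 1.10 in es3dd.

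No paired analysis was possible because a table of group means names no replicate, and recovery of the libraries gives them no numbers. Counts of 22-nt reads were low in several genes, with a median over the 14 of 48 in es3 and 10.5 in es3dd, and counting error is large there.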
